A study of Drosophila melanogaster with 4 samples.

Results

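H3K4me3 regions were described that lie in heterochromatic sequence or close to a centromere in Drosophila melanogaster, from whole larvae (3rd instar). The larvae were of the wild-type strain Oregon-R and were untreated as far as the labels say. Chromatin of homogenised, formaldehyde-fixed larvae was sheared by sonication and precipitated with lot 2 of the rabbit polyclonal antibody ab8580, raised against a peptide of human histone H3 trimethylated at lysine 4. The labels name 2 ChIP libraries (replicates 1 and 2) and 2 input libraries. Files of the input were not analysed here. Whole larvae hold many tissues, so a region is a sum over all of them. The authors deposited 1 list of enriched regions for each ChIP library and 1 combined list, on FlyBase release 5. The lists hold positions, widths and scores but no read counts, so the depth of the libraries is unknown.

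The members were taken from the combined list by position alone. They are all regions on chromosome 4, on the scaffold sequences whose names end in Het, on the sequence U, and within 1 Mb of the centromere-side end of the assembled arms 2L, 3L, 3R and X. This gave 222 of 4451 regions. Chromosome 4 held 56 of them, the Het scaffolds 47, U 34 and the arm ends 85. Among the Het scaffolds, 2RHet held 16 regions, 3LHet 15, 3RHet 7, YHet 4, XHet 3 and 2LHet 2. Among the arm ends, 3R held 42 regions, 2L 20, X 17 and 3L 6. They were compared with the 3324 remaining regions of 2L, 3L, 3R and X, called the remaining arms below. The 905 regions of 2R were not compared. The authors labelled 20 of the 4451 regions of the combined list as depleted, 17 of them in the remaining arms and 0 among the 222 members. With so few labelled regions, their absence cannot be read as a trait of the members. The lists of replicates 1 and 2 held 0 and 2 such regions, and 0 members in either.

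H3K4me3 marks the start sites of active genes, where it is laid down by SET1-type methyltransferases. Pericentric heterochromatin is rich in repeats and transposons, carries HP1a and H3K9 methylation, and holds few genes, though some of these need a heterochromatic setting to be active. Chromosome 4 is unusual, since most of it carries HP1a while many of its genes are active and have marked promoters. U gathers scaffolds that were not placed on a chromosome, and the Het sequences are ordered scaffolds of heterochromatin, so distances along U, and in part along Het, need not be distances on a chromosome. Heterochromatin is known to be under-replicated in polytene tissues of larvae, and repeats limit where short reads can be placed. The part of either in the values below was not tested, and no heterochromatin mark was measured here.

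Chromosome 4 had as many H3K4me3 regions per length as the euchromatic arms or slightly more, the Het scaffolds and U had few, and the arm ends lay between. Chromosome 4 had 41.4 regions per Mb (exact 95% Poisson interval 31.3 to 53.8), the Het scaffolds 5.06 (3.72 to 6.73), U 3.38 (2.34 to 4.73), the arm ends 21.25 (17.0 to 26.3) and the remaining arms 35.4 (34.2 to 36.6). As a ratio to the remaining arms, this was 1.17 for chromosome 4 (exact 95% interval 0.882 to 1.52), 0.143 for the Het scaffolds (0.105 to 0.191), 0.0956 for U (0.0661 to 0.134) and 0.600 for the arm ends (0.478 to 0.744). The intervals of the Het scaffolds, U and the arm ends exclude 1, and that of chromosome 4 includes it. With length counted from the first to the last region of each sequence, the Het scaffolds had 7.74 regions per Mb and a ratio of 0.217 (0.159 to 0.289). In the separate replicate lists the density averaged 37.4 ± 0.523 per Mb on chromosome 4, 4.74 ± 0.152 on the Het scaffolds, 20.25 ± 0 at the arm ends and 34.3 ± 0.648 in the remaining arms (SD, n = 2). On U it averaged 2.59 ± 0.141, below the 3.38 of the combined list, which held U regions found in neither replicate list. The differences from the remaining arms were thus far larger than the spread between replicates for the Het scaffolds and the arm ends. Regions covered 13.3% of chromosome 4, 1.42% of the Het scaffolds, 0.727% of U, 6.58% of the arm ends and 13.1% of the remaining arms. All intervals cover counting error only. Neighbouring regions may not be independent, which the intervals leave out, and whether the 2 replicates are separate cultures of larvae is not stated, so their spread may be technical.

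The combined list and the replicate lists come from the same 2 ChIP libraries, by a merging rule that is not stated. Overlap between them is thus in part built in and is no independent support. The share of regions that recurred in both replicate lists, with at least 1 shared base, was compared by class. Over the whole combined list this share was 91.8%. It was 198 of 222 members (89.2%, exact 95% Clopper-Pearson interval 84.3 to 92.9), and this interval includes 91.8%. By class it was 50 of 56 on chromosome 4 (89.3%), 43 of 47 on the Het scaffolds (91.5%), 25 of 34 on U (73.5%, interval 55.6 to 87.1), 80 of 85 at the arm ends (94.1%) and 3055 of 3324 in the remaining arms (91.9%). U is the class whose interval lies below the share of the whole list. On U, 7 of 34 regions (20.6%, interval 8.70 to 37.9) had no overlap in either replicate list, against 116 (3.49%) in the remaining arms. On chromosome 4 there were 5 such regions (8.93%, interval 2.96 to 19.6), on the Het scaffolds 2 (4.26%, 0.520 to 14.5) and at the arm ends 3 (3.53%, 0.734 to 9.97). These intervals include the 3.49% of the remaining arms.

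Members were mostly of middle width, and very broad regions were absent among them. The median width was 2787 bp on chromosome 4 (quartiles 2399 and 3323.5), 2749 bp on the Het scaffolds (2527 and 3008), 2162 bp on U (1858 and 2358.5), 2761 bp at the arm ends (2457 and 3179) and 2873 bp in the remaining arms (2374.5 and 4273.5). The medians of U in the replicate lists were 2192 and 2196 bp, against 2876 and 2892 bp in the remaining arms, so U was narrower by much more than the replicates differed. In the combined list the lower quartiles of the other classes were close to that of the remaining arms, and the gap opened at the upper quartile. For chromosome 4 this depended on the list. Its upper quartile was 3571 bp in replicate 1 and 4110 bp in replicate 2, against 4135 and 4204.5 bp in the remaining arms. Regions over 10 kb numbered 0 among the members and 94 of 3324 (2.83%) in the remaining arms. The exact upper bounds of this share were 6.38% on chromosome 4, 7.55% on the Het scaffolds, 10.3% on U and 4.25% at the arm ends. All lie above 2.83%, so the absence is not established as a trait of any 1 class. Of the 100 widest regions of the combined list, 0 were members, which make up 222 of its 4451 regions.

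**Figure D1:**
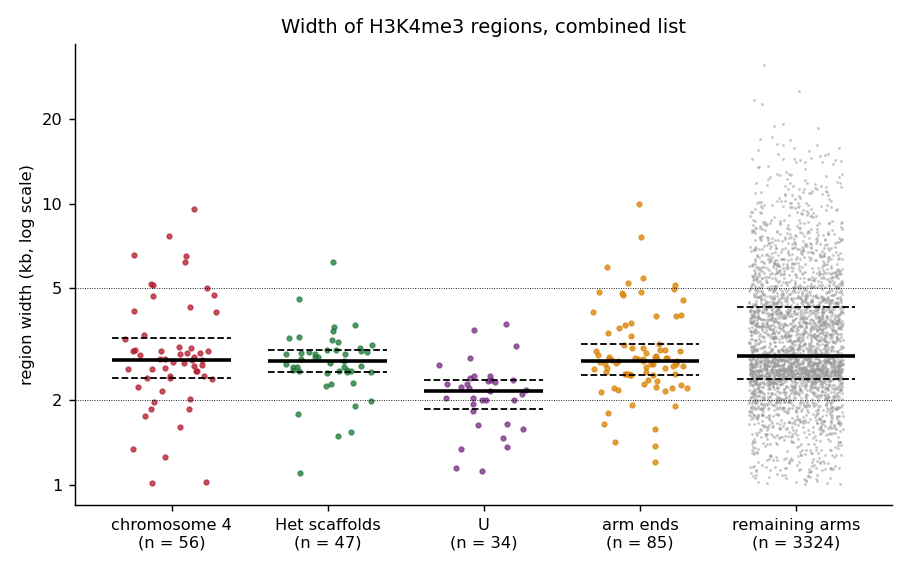
Width of every region in the combined list, in kb on a log scale, by class. Each point is 1 region, the solid bar is the median, the dashed bars are the quartiles and the dotted lines mark 2 and 5 kb. The medians lie at 2787, 2749, 2162, 2761 and 2873 bp from left to right, and points above 10 kb occur in the remaining arms alone.

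Chromosome 4 resembled the remaining arms in its width classes. Of its 56 regions, 9 were narrow, meaning under 2 kb (16.1%), 39 were 2 to 5 kb wide (69.6%) and 8 were broad, meaning over 5 kb (14.3%). In the remaining arms 469 were narrow (14.1%), 2270 of middle width (68.3%) and 585 broad (17.6%). The odds of a broad region on chromosome 4 were 0.780 times those in the remaining arms (exact 95% interval 0.317 to 1.68), and the odds of a narrow one 1.17 times (0.499 to 2.43). Both intervals include 1 and leave room for a difference of either sign. The ratio for narrow regions was 0.868 in the list of replicate 1 and 0.532 in that of replicate 2, so its direction depends on the list. The widest region of the chromosome, 4:1045430-1054976, was 9547 bp wide and scored 2.28 in the combined list, 2.33 in replicate 1 and 2.26 in replicate 2. The 8 broad regions were between 5007 and 9547 bp wide, and each overlapped a region in both replicate lists by at least 1 base. Such overlap does not show equal width. On chromosome 4 the list of replicate 1 held 5 broad regions (9.80%) and that of replicate 2 held 7 (14.0%). The region 4:1142044-1148542 overlapped 2 separate regions of replicate 1.

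The median gap between neighbours was longer on chromosome 4 than in the remaining arms. Gaps between neighbours had a median of 12.2 kb (quartiles 4.82 and 29.6), against 8.79 kb (2.83 and 26.5) in the remaining arms. The replicate lists gave medians of 11.9 and 12.2 kb for chromosome 4, against 8.36 and 8.70 kb for the remaining arms. Gaps of at most 5 kb made up 15 of 55 on chromosome 4 (27.3%) and 1224 of 3320 in the remaining arms (36.9%). Gaps over 50 kb made up 7 of 55 (12.7%) and 464 of 3320 (14.0%). The longest stretch of chromosome 4 with no region, 4:717579-806387, was 88.8 kb, while the longest in the remaining arms was 478 kb. Gaps between 5 and 50 kb made up 33 of 55 (60.0%) and 1632 of 3320 (49.2%). These shares of gaps were not tested, and the 2 longest stretches come from very different numbers of gaps.

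Local clusters were also scarce on chromosome 4. A local cluster is a run of at least 3 regions with each gap at most 5 kb. Of the 56 regions 7 were in such clusters (12.5%, interval 5.18 to 24.1), against 1080 of 3324 (32.5%) in the remaining arms, an odds ratio of 0.297 (exact 95% interval 0.113 to 0.662). In the replicate lists the share was 7.84% and 8.00% on chromosome 4, against 34.3% and 32.9% in the remaining arms, with odds ratios of 0.163 and 0.178. The 2 clusters were 4:1070216-1082470, with 3 regions over 12.3 kb, and 4:1279844-1300470, with 4 regions over 20.6 kb. The remaining arms were also split into 67 windows of the length of chromosome 4. Their share of regions in clusters had a lowest value of 6.38%, a median of 32.1% and a highest of 64.6%, and 4 of 67 windows were at or below the 12.5% of chromosome 4. Among the 16 windows with at least 56 regions, the lowest share was 25.9%. This depends on the cut, since the replicate lists held 51 and 50 regions on chromosome 4. Windows with slightly fewer regions had 12% (3L:1351858-2703714, 50 regions), 13.2% (X:16222285-17574141, 53) and 13.7% (3R:25333427-26685283, 51). The first of these lies below the 12.5% of chromosome 4. The other windows with 50 to 55 regions had 18% to 55.6%. With clusters of at least 4 regions the odds ratio was 0.402 and its interval (0.105 to 1.10) includes 1.

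The Het scaffolds held few H3K4me3 regions, and these had a median width and score close to those of the remaining arms but few broad regions among them. Of 47 regions, 40 were 2 to 5 kb wide (85.1%), 6 were narrow (12.8%) and 1 was broad (2.13%), against 68.3%, 14.1% and 17.6% in the remaining arms. The odds of a broad region were 0.102 times those in the remaining arms (0.00252 to 0.599), an interval that excludes 1. The odds of a narrow one were 0.891 times (0.307 to 2.13), and 0.390 times (0.0455 to 1.51) in the list of replicate 1. Without 2RHet the ratio for broad regions was 0.156 (0.00382 to 0.943). The widths were drawn together, with an interquartile range of 481 bp on the Het scaffolds and 1899 bp in the remaining arms. This was not particular to the Het scaffolds, since the range was 500.5 bp on U and 722 bp at the arm ends. Within the class, 2RHet had a wider range of 1281.5 bp. The median score was 2.04 on the Het scaffolds and 2.04 in the remaining arms. Scores are the authors' own values and have no stated scale, so they serve here to rank and describe regions.

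The 6 Het scaffolds were not alike. All 6 narrow regions lay on 2RHet, where they were 37.5% of 16 regions, and 7 of the 8 Het regions with a score under 1 were also there. In the replicate lists 2RHet had 2 narrow regions of 12 (16.7%) and 4 of 14 (28.6%), and 2 of the 6 narrow regions were in neither replicate list. The other 31 Het regions were all at least 2 kb wide. Leaving out 2RHet, a setting chosen after seeing the data, thus sets the odds ratio of narrow regions to 0 (0 to 0.773). This outcome was fixed by the choice and is no test of the other scaffolds. On 3RHet the first 1704 kb held no region, 6 of its 7 regions lay between bases 1704320 and 1936850, and all were between 2621 and 3013 bp wide. On 3LHet all 15 regions were of middle width, between 2517 and 3335 bp. The lone broad region of the class was 2LHet:30438-36664, 6227 bp wide with a score of 2.43 (2.36 in replicate 1 and 2.50 in replicate 2). The only other region of 2LHet, 2LHet:167214-170052, was 2839 bp wide and scored 2.35.

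Density differed between the scaffolds. XHet had 14.7 regions per Mb, YHet 11.5, 3LHet 5.87, 2LHet 5.42, 2RHet 4.87 and 3RHet 2.78, with 2 to 4 regions on each of 2LHet, XHet and YHet. With so few regions the intervals are wide, 3.03 to 43.0 per Mb for XHet and 3.14 to 29.5 for YHet. The regions of XHet were XHet:59656-63184 (3529 bp, score 2.89), XHet:73810-78388 (4579 bp, score 2.37) and XHet:83908-86412 (2505 bp, score 2.14). The first of these had the highest score of the Het scaffolds. The highest-scoring regions of the longer scaffolds were 2RHet:469714-472682 (2969 bp, score 2.70), 3LHet:2242614-2245562 (2949 bp, score 2.70) and 3RHet:1806570-1809494 (2925 bp, score 2.20). Their widest regions were 2RHet:3197438-3201142 (3705 bp), 3LHet:592920-596254 (3335 bp) and 3RHet:1822156-1825168 (3013 bp).

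Spacing on the Het scaffolds was long and uneven. The median gap was 51.0 kb (quartiles 5.52 and 147) on the Het scaffolds, against 8.79 kb in the remaining arms, and 21 of 41 gaps (51.2%) exceeded 50 kb, against 14.0%. The replicate lists gave 60.3 kb each for the Het scaffolds. The longest stretches without a region were 857 kb at 2RHet:476755-1334001, 684 kb at 3LHet:710851-1394771, 537 kb at 3RHet:1936851-2473689 and 131 kb at 2LHet:36665-167213. Even so, 8 gaps (19.5%) were at most 5 kb. Of 47 regions 6 were in local clusters (12.8%), an odds ratio of 0.304 to the remaining arms (0.105 to 0.723). In the replicate lists the share was 6.98% and 6.67%, with odds ratios of 0.144 and 0.146. A low density lowers this share by itself, and no windows of like density were compared. These ratios thus cannot be told apart from the low density of the Het scaffolds. The 2 clusters differed in kind: 3LHet:592920-608100 held 3 regions of nearly equal score (1.96 to 2.03), each found in both replicate lists, while 2RHet:333250-343118 held 3 regions scoring 0.14 to 0.95, of which 1 was found in both.

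On U the regions were of low median width and far apart, and some had very high scores. Of 34 regions 12 were narrow (35.3%, interval 19.7 to 53.5), 22 of middle width (64.7%) and 0 broad, which allows a share of up to 10.3% by the exact interval. The odds of a narrow region were 3.32 times those in the remaining arms (1.49 to 7.06), and the odds ratio of a broad one was 0 (0 to 0.539). The excess of narrow regions rests in part on regions found in neither replicate list: without them, a setting chosen after seeing the data, the odds ratio was 1.83 (0.539 to 5.00). It was 2.52 (0.818 to 6.62) in the list of replicate 1. The widest region of U, U:3441728-3445464, was 3737 bp wide and scored 2.68.

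Neighbours on U were far apart. The median gap was 118 kb (quartiles 40.8 and 276), 24 of 33 gaps (72.7%) exceeded 50 kb, and 2 (6.06%) were at most 5 kb. The replicate lists, with 25 and 27 regions on U, gave median gaps of 239 and 233 kb. The longest stretch with no region, U:1398075-3441727, was 2043.65 kb. No run of 3 regions met the cluster rule, an odds ratio of 0 (0 to 0.239). The rule needs neighbours within 5 kb, so a low density lowers this share by itself. No windows of like density were compared, so the ratio cannot be told apart from the low density of U.

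**Figure D2:**
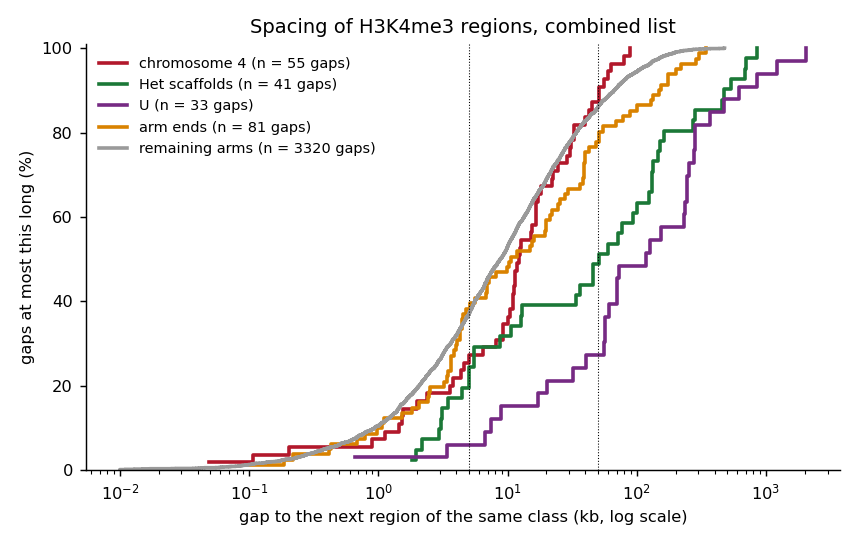
Cumulative share of gaps, in percent, against gap length in kb on a log scale, for neighbouring regions of the same class in the combined list. Dotted lines mark 5 and 50 kb, and gaps under 10 bp are drawn at 10 bp. Chromosome 4 stays below the remaining arms from about 1 kb to its median of 12.2 kb and reaches 100% by 88.8 kb, while the Het scaffolds and U run far to the right, with medians of 51.0 and 118 kb.

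The highest scores of the whole combined list were on U. Its region U:7869404-7871760 ranked first of 4451 with 5.24 (5.19 in replicate 1 and 4.33 in replicate 2) and was 2357 bp wide. The regions ranked 2 and 3, named after their values were seen, were also on U: U:5540918-5543350 with 4.02 and U:6383826-6386654 with 3.73. U held 3 of the 10 highest scores with 34 regions, the remaining arms 3 with 3324 regions. The median score of U was all the same 1.89, against 2.04 in the remaining arms.

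Narrow regions of high score were found on chromosome 4 and U alone within the combined list. Under 2 kb and with a score above 2 there were 5 regions in all, 3 on chromosome 4 and 2 on U, picked out after their values were seen. They were 4:1335112-1336124 (1013 bp, score 2.20), 4:1347968-1348986 (1019 bp, score 2.20), 4:1349888-1351752 (1865 bp, score 3.32), U:7585924-7587286 (1363 bp, score 2.52) and U:9769358-9770824 (1467 bp, score 2.12). The first 2 had the same score, 2.2006, and shared rank 1916, and how this tie arose is not known. None of the 5 overlapped a region in either replicate list. The highest narrow score was 1.79 in the remaining arms, 0.729 on the Het scaffolds and 0.359 at the arm ends. The third of them was the highest-scoring region of chromosome 4, ranked 5 of 4451, and ended 105 bp from the end of the assembled sequence.

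**Figure D3:**
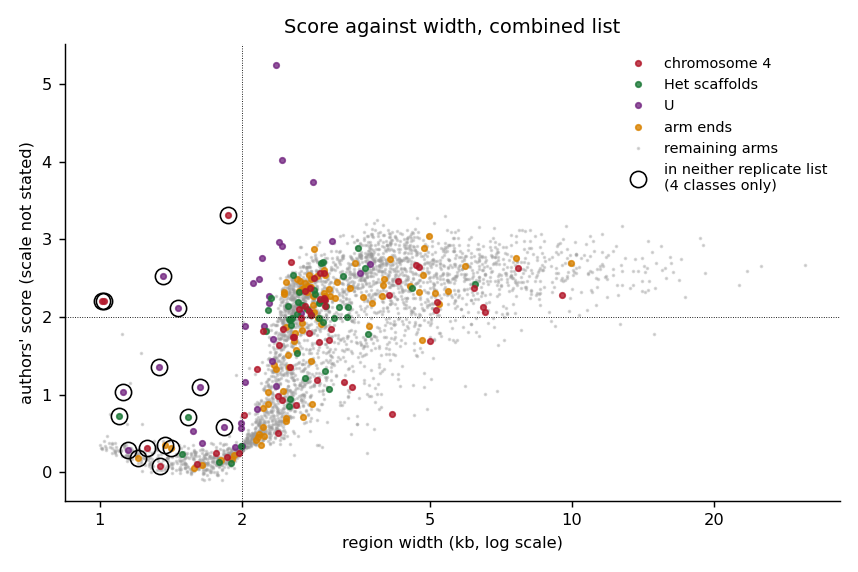
The authors' score, of unstated scale, against region width in kb on a log scale, combined list, 1 point a region. Circles mark regions of the 4 classes that overlap nothing in either replicate list, and dotted lines mark 2 kb and a score of 2. The 5 points in the upper left field, on chromosome 4 and U, are all circled, and 3 points of U lie above the rest of the list with 3.73 to 5.24.

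The arm ends differed from each other as much as they did from the remaining arms. The end of 3R had 42 regions per Mb, against 35.9 in the rest of that arm, a ratio of 1.17 (exact 95% interval 0.838 to 1.59). The end of 2L had 20, against 33.6, a ratio of 0.595 (0.361 to 0.926). The end of X had 17, against 35.8, a ratio of 0.475 (0.276 to 0.766). The end of 3L had 6, against 36.2, a ratio of 0.166 (0.0606 to 0.362). The intervals of 2L, X and 3L exclude 1, and that of 3R includes it. The replicate lists gave ratios of 1.13 and 1.20 for 3R, 0.578 and 0.597 for 2L, 0.452 and 0.437 for X, and 0.170 and 0.172 for 3L. Without the end of 3R, a setting chosen after seeing the data, the arm ends had 14.3 regions per Mb, a ratio of 0.405 (0.292 to 0.547).

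The span over which density was low also differed. Going away from the centromere in steps of 1 Mb, 3L had 6, 17, 26, 43 and 65 regions, more at each step. In bins of 500 kb its density also fell in places, from 24 to 14 and from 58 to 28 per Mb. 2L had 20, 30, 37, 38 and 37, and X 17, 21, 37, 37 and 36, so both reached the level of their arm by the third step. 3R had 42, 46, 26, 29 and 50, with no low stretch at the end itself. Among 92 windows of 1 Mb in the remaining arms the lowest count was 9, the median 35 and the highest 59. Of these windows 0 had as few regions as the end of 3L, 3 as few as that of X, 8 as few as that of 2L and 65 as few as that of 3R. Within the first Mb of 3R, 28 regions lay in the 500 kb next to the centromere-side end and 14 in the 500 kb after it, and its first region began at base 2 of the assembled arm.

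**Figure D4:**
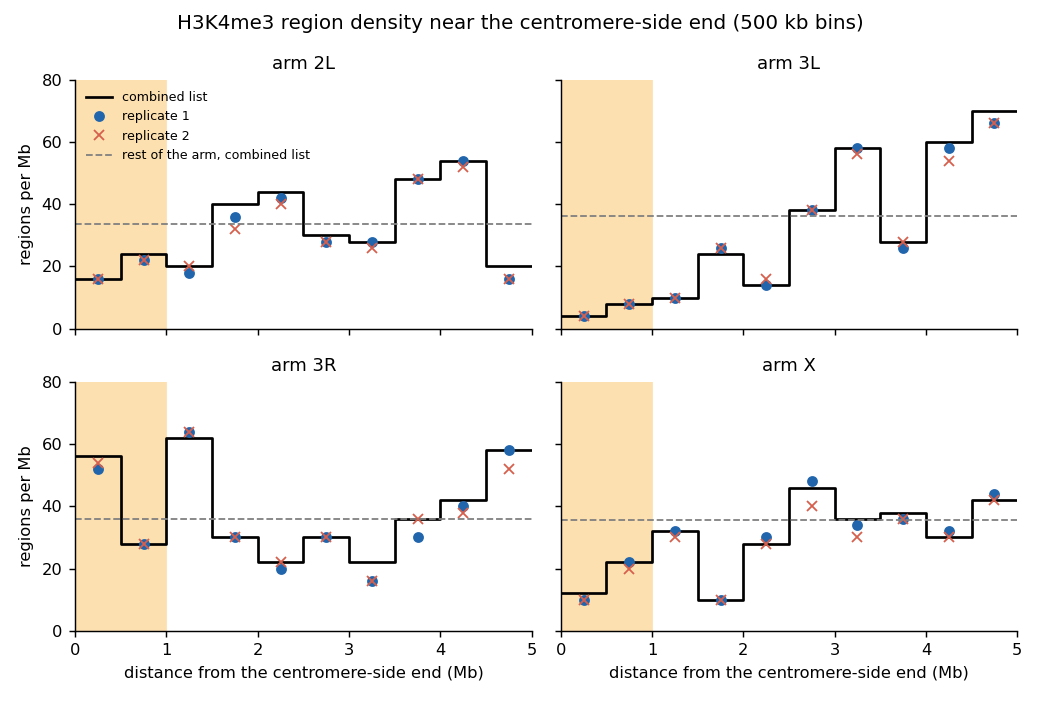
Regions per Mb in 500 kb bins against distance in Mb from the centromere-side end of the assembled arms 2L, 3L, 3R and X. The black line is the combined list, circles and crosses are replicates 1 and 2, the dashed line is the density in the rest of the arm (combined list) and the shaded band is the 1 Mb that makes an arm end. The lists lie close together, and 3R starts above its dashed line while the other 3 arms start below theirs.

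Arm-end regions were of middle width. Of 85 regions 71 were 2 to 5 kb wide (83.5%), 8 were narrow (9.41%) and 6 broad (7.06%). The odds of a broad region were 0.356 times those in the remaining arms (0.126 to 0.815), and the odds of a narrow one 0.633 times (0.262 to 1.32), or 0.415 times in the list of replicate 1. Without the end of 3R the ratio for broad regions was 0.228 (0.0267 to 0.884). The 6 broad regions were 4 on 3R, 1 on 2L and 1 on X. With arm ends of 2 Mb the odds ratio of broad regions was 0.704 (0.443 to 1.08), with ends of 500 kb 0.346 (0.0682 to 1.09) and with neighbours within 500 bp merged 0.537 (0.245 to 1.05), and these intervals include 1. The widest region of all members was 3R:221120-231076, 9957 bp wide with a score of 2.70 (2.92 in replicate 1 and 2.66 in replicate 2).

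The widest regions of the other ends were 2L:22427018-22432968 (5951 bp, score 2.66), X:21872124-21877254 (5131 bp, score 2.31) and 3L:23707198-23710270 (3073 bp, score 2.26). Those of 2L and 3L were also the highest-scoring of their ends. The highest scores at the other ends were 3.04 at X:21855206-21860190 (4985 bp) and 2.89 at 3R:55998-60854 (4857 bp). On 3L all 6 regions were between 2365 and 3073 bp wide.

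Spacing differed between the arm ends too. The median gap was 5.60 kb at the end of 3R, 6.88 kb at that of X, 39.2 kb at that of 2L and 200 kb at that of 3L, and 10.7 kb over all (quartiles 3.64 and 40.1), against 8.79 kb (2.83 and 26.5) in the remaining arms. Without the end of 3R the median over the arm ends was 22.7 kb. The end of X thus had mostly short gaps between few regions, which stood in groups with long empty stretches between them. The longest of these, X:21502087-21845573, was 343 kb. The longest stretch was 303 kb at the end of 3L (3L:24226181-24529513), 175 kb at that of 2L (2L:22251677-22427017) and 153 kb at that of 3R (3R:312445-465499). Gaps over 50 kb made up 18 of 81 at the arm ends (22.2%), against 14.0% in the remaining arms.

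The share of regions in local clusters at the arm ends did not differ from that of the remaining arms beyond its interval. Clusters per length were fewer, 2 per Mb at the arm ends and 3.13 in the remaining arms. Of 85 regions 32 were in clusters (37.6%), an odds ratio of 1.25 (0.778 to 1.99). They were 17 of 42 regions on 3R, 9 of 17 on X, 6 of 20 on 2L and 0 of 6 on 3L. The direction of this ratio was not stable: it was 0.964 with ends of 500 kb and 0.671 with gaps of up to 10 kb in a cluster, and 1.94 (1.14 to 3.21) with at least 4 regions in a cluster. The clusters with most regions were 3R:45784-69180, with 5 regions over 23.4 kb, 3R:465500-487376, with 5 over 21.9 kb, and X:21474544-21502086, with 5 over 27.5 kb. The largest cluster of the remaining arms had 11 regions and the longest spanned 85.0 kb. Cluster spans had a median of 22.2 kb at the arm ends and 17.6 kb in the remaining arms, and regions covered a median of 63.9% and 72.7% of that span.

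The cluster X:21474544-21502086 was evenly built, which was noticed after its values were seen. Its 5 regions were 2683, 2451, 2457, 2479 and 3003 bp wide and scored 2.36, 2.32, 2.29, 2.45 and 2.28. Their starts lay 6506, 6098, 6086 and 5850 bp apart. The coefficient of variation of these steps was 4.44%, the lowest of 4402 runs of 5 neighbouring regions in the combined list, whose median was 79.7%. It was 3.46% in the list of replicate 1 and 4.73% in that of replicate 2, and the lowest of its list in both. Even runs were not particular to the members. The runs of 5 ranked 2 to 5 in the combined list, with 5.19% to 7.93%, lay in the remaining arms. Among 4413 runs of 4, the lowest value was 0.173%, on 2L in the remaining arms. Runs of 4 within this X cluster ranked 6 (2.33%) and 13 (3.84%). The 4 regions of YHet were spaced in a like way. They were YHet:304444-307004 (2561 bp, score 2.54), YHet:312538-314784 (2247 bp, score 1.81), YHet:319788-322064 (2277 bp, score 2.08) and YHet:327082-329390 (2309 bp, score 2.25). Their starts lay 8094, 7250 and 7294 bp apart, with a coefficient of variation of 6.30%, ranked 21 of 4413 runs of 4, and of 6.40% and 6.37% in the lists of replicates 1 and 2. The gaps of 5533, 5003 and 5017 bp were just over the 5 kb limit, so the 4 regions did not count as a local cluster.

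**Figure D5:**
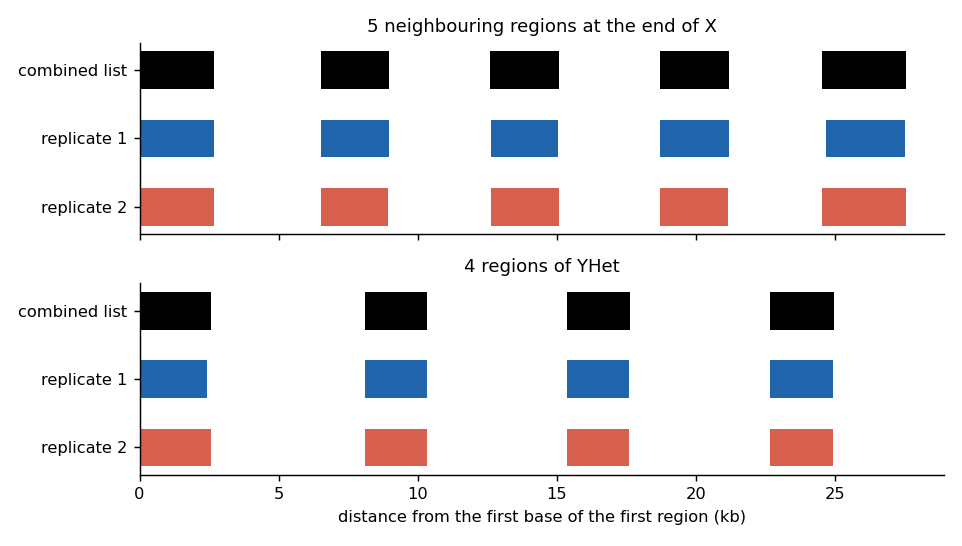
Position of each region in the evenly spaced runs at the end of X (5 regions, above) and on YHet (4 regions, below), as distance in kb from the first base of the first region. Each bar is 1 region, with a row each for the combined list, replicate 1 and replicate 2. The 3 lists place the bars nearly alike, with steps of 5850 to 6506 bp on X and 7250 to 8094 bp on YHet in the combined list.

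The shift in score between the replicates was smaller on chromosome 4, on the Het scaffolds and at the arm ends than in the remaining arms, with XHet as an exception (median difference 0.29, 3 of 3 regions higher in replicate 1). Where 1 region of each replicate list matched, the median of the score in replicate 1 minus that in replicate 2 was 0.01 on chromosome 4 (49 regions), 0.03 on the Het scaffolds (43), 0.22 on U (25), 0.12 at the arm ends (80) and 0.19 in the remaining arms (3028). Replicate 1 was the higher in 26 of 49 regions on chromosome 4 (53.1%), 23 of 43 on the Het scaffolds (53.5%), 17 of 25 on U (68.0%), 66 of 80 at the arm ends (82.5%) and 2776 of 3028 in the remaining arms (91.7%). The arm ends split again by arm: the median difference was 0.19 at the end of 3R and 0.17 at that of X, close to the 0.19 of either arm's rest, but 0.06 at the end of 2L and 0.01 at that of 3L, against 0.19 and 0.18 in the rest of these arms. A difference between replicates that depends on the class was seen in 1 pair of libraries and was not tested. The region boundaries in the replicate lists lay a median of 45 bp apart on chromosome 4, 23 bp on the Het scaffolds, 29.5 bp on U, 40.75 bp at the arm ends and 42.5 bp in the remaining arms.

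At the 1 Mb limits the nearest members and their neighbours outside were as follows. On 2L the region just inside was 2139 bp wide with a score of 0.42 and the one just outside 4285 bp with 1.26. On 3L the widths were 2611 bp inside (score 1.57) and 4663 bp outside (2.25). On 3R they were 2651 bp inside (2.46) and 2593 bp outside (1.97), and on X 2683 bp inside (2.36) and 4675 bp outside (2.44). The region just inside on X is the first of the evenly spaced run.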

How the data were processed

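ChIP-seq region lists of 2 libraries and their combined list were used. The authors deposited positions and a score for each region (FlyBase release 5), per the file headers. The scale of the score is unknown. The submitters' processing notes name Bowtie 0.12.7. For the caller, its threshold, the use of input and how replicates were merged, nothing is stated in these sources. No read count or depth was given, so its precision is unknown.

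Regions were classed by position with Python 3.11.15, pandas 2.3.3 and scipy 1.17.1. Widths count both end bases. A gap counts the bases between neighbours of 1 class and sequence. Densities use the whole sequence length, unmapped stretches included. Intervals are exact at 95% and no p-values were computed. The methods were checked on simulated data. Alternatives changed the list, arm-end length, score, width, cluster and merging rules. The members and lists were chosen with earlier results of these data known. Named regions were the widest and highest-scoring per class, all regions of sequences with at most 4, the 2 largest clusters, the longest empty stretch and those at the limits. The gene table was of release 6, so no gene was assigned and no sequence was read.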

Additional observations from a re-analysis of the deposited data

How the results depend on the processing

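Of 146 recomputed ratios and shares, 129 kept their direction and their side of 1, or moved by less than the interval, and among these were the density ratios in 33 of 33 cases. Median widths moved by more than the SD between replicates in 16 of 23 cases and median gaps in 18 of 23, against small SDs. No paired analysis was possible because the results come from region lists and not from a test between groups of samples. With 1 replicate list at a time, the odds ratio of narrow regions was 0.532 to 0.868 for chromosome 4 and 2.52 to 2.92 for U. Without regions in neither replicate list (chosen after seeing the data) it was 0.686 for chromosome 4 and 1.83 for U. For the Het scaffolds without 2RHet, chosen likewise, it was 0 by construction, since all narrow Het regions lay on 2RHet. The odds ratio of broad regions at the arm ends was 0.346 with ends of 500 kb, 0.704 with ends of 2 Mb and 0.537 with neighbours within 500 bp merged. The odds ratio of clustered regions at the arm ends was 0.964 with ends of 500 kb, 0.671 with gaps up to 10 kb and 1.94 with at least 4 regions. That of chromosome 4 was 0.402 with at least 4 regions, and that of U 0, with an upper bound of 1.32, for scores above the median. Above the median score, 100% of regions on the Het scaffolds, at the arm ends and in the remaining arms were in both replicate lists. It was 24 of 27 on chromosome 4 (88.9%) and 13 of 16 on U (81.25%). The odds ratio of narrow regions had no finite value there, since the highest narrow score in the remaining arms was 1.79. Chromosome 4 had 3 narrow regions scoring above 2 and U 2, all found in neither replicate list. The causes were not tested. Unknown depth and mappable length limit every density, and the score's unknown scale limits every score.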
